A study of Homo sapiens with 2 samples.

Results

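The genes described here lie on the short arm of chromosome 10 and were measured in the THP-1 cell line, which comes from a human monocytic leukaemia. They were chosen by position and detection: their probes carry 1 gene symbol, RefSeq places the gene on the short-arm side of the centromere in assembly GRCh38, and the detection p-value was under 0.01 on both arrays. This left 67 genes, read by 88 probes, of the 9370 genes detected on both arrays, after 11 other genes of the arm were left out by name. The study compared expression with LY6E silenced and not silenced. One array, called shLY6E, held total RNA of THP-1 cells that stably express a short hairpin RNA (shRNA, which is processed into a small RNA that directs decay of a matching mRNA) against LY6E. The other, called shCtrl, held total RNA of THP-1 cells that stably express a scrambled hairpin. Both lines grew under puromycin, and whether each is a clone or a pool is not stated in the labels.

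A chromosome arm groups genes by place and not by pathway. The short arm of chromosome 10 carries genes of RNA decay and translation, mitochondrial upkeep, vesicle traffic and the cytoskeleton that most cells use, among them VIM, which encodes the intermediate filament protein vimentin. It also carries genes of immune signalling, such as MAP3K8, a kinase that relays Toll-like receptor signals to the MAP kinases, and APBB1IP, an adaptor that links the small GTPase RAP1 to integrin activation in blood cells.

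With 1 array per group (n = 1 each) no difference has a replicate check, no p-value was computed, and precision is limited by the number of arrays. The arrays are single-colour Illumina arrays with 47321 probes, of which 16378 were detected in shLY6E and 16283 in shCtrl. LY6E, the target of the hairpin, had a deposited intensity of 253 in shLY6E and 1049 in shCtrl, and was 3.67-fold lower after normalization. All 11 of the THP-1 markers with a named probe were detected on both arrays, CSF1R, SPI1 and TYROBP among them. Of 10 markers of other cell types, 3 were detected in shLY6E and 2 in shCtrl. These were PECAM1 and NKG7 on both arrays and CD79A in shLY6E, while CD3D, CD3E, MS4A1, EPCAM and COL1A1 were not detected on either array. Summed over each list, normalized intensity was 22517 in shLY6E and 15237 in shCtrl for the THP-1 markers, and 2641 and 2252 in the same order for the markers of other cell types. Most of the latter sum came from PECAM1, at a normalized log2 intensity of 10.8 in shLY6E and 10.9 in shCtrl. That sum is thus no measure of other cells. Single markers differed: NKG7 stood at 1.76 (log2, shLY6E minus shCtrl) and PECAM1 at -0.05, and among the THP-1 markers LYZ stood at 2.39, CSF1R at 0.95 and ITGAM at -0.48. The part of these levels in the differences below was not tested.

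The short-arm genes were lower in shLY6E from one end of the arm to the other. Differences are log2 values, shLY6E minus shCtrl, of background-corrected and quantile-normalized intensity. Of the 67 genes, 61 were below 0 (91.0%), where 54.7% of all 9370 genes were. Their median difference was -0.72, a ratio of 0.609, and the middle 50% ran from -1.12 to -0.34. In all, 45 were lower by 1.5-fold or more and 20 lower by 2-fold or more, where 9.67% and 2.55% of all genes were. At least 1.5-fold higher were 2 of them, where 6.41% of all genes were, and higher by 2-fold or more was 1, where 2.18% were. The remaining 20 lay within 1.5-fold. These counts move with the processing. Without background correction 28 members were lower by 1.5-fold or more and 8 by 2-fold or more (3.84% and 0.662% of all genes), and 0 were at least 1.5-fold higher (3.04%). Under median scaling, which gives both arrays one median and leaves the shape of their distributions, 51 and 45 were lower by these folds (35.0% and 9.07% of all genes), and 1 was at least 1.5-fold higher (2.21%). An array of bulk RNA cannot tell fewer cells that express a gene from less RNA per cell. The arm was picked after genes of chromosome 10 had been seen to be lower on these arrays, so these counts describe the members and are no test of them.

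The same picture stood in the deposited intensities before any correction. The shCtrl array was the brighter of the pair, so that the shLY6E to shCtrl ratio had a median of 0.729 over 9045 genes of other chromosomes. Over the short-arm genes it was 0.507. The median intensity of the members was 159 in shLY6E and 373 in shCtrl.

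**Figure D1:**
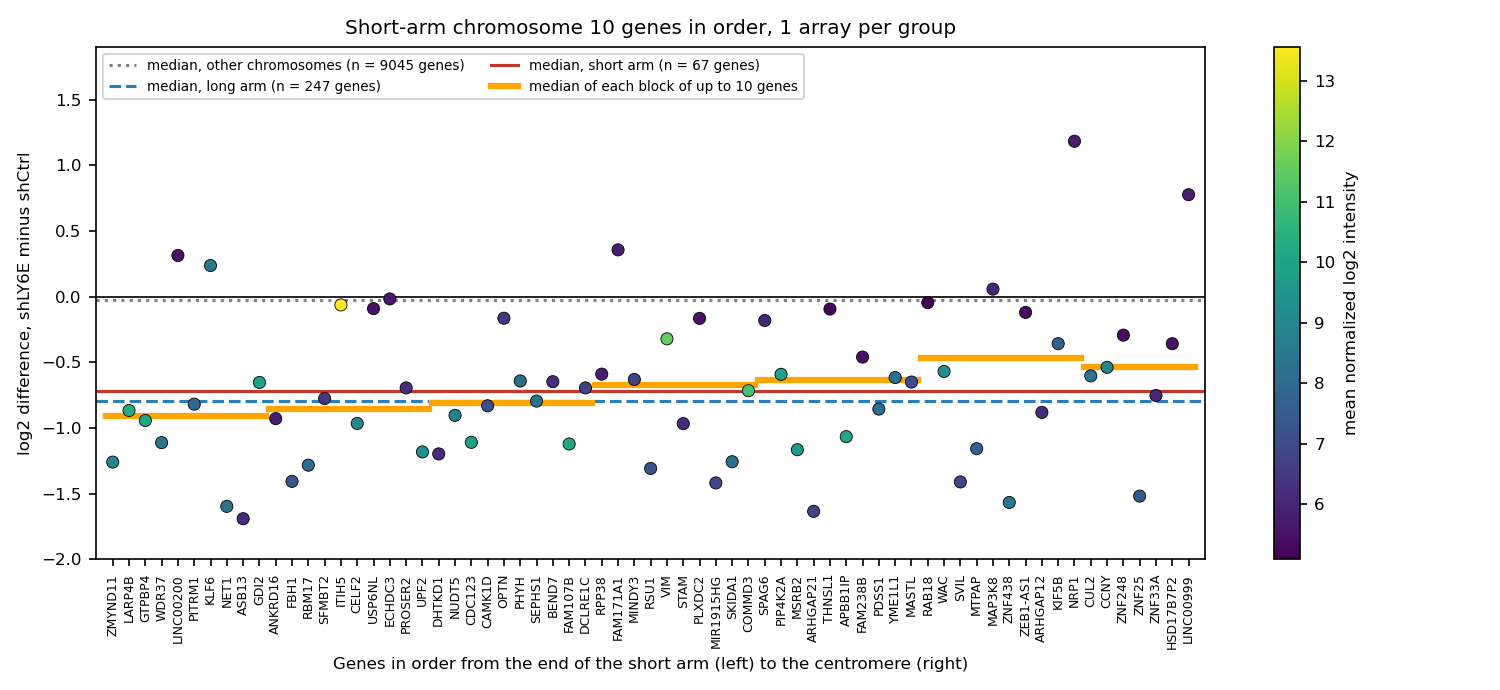
Log2 difference (shLY6E minus shCtrl, 1 array each) of the 67 genes in their order along the arm, coloured by mean normalized log2 intensity. Horizontal lines give the medians of the short arm (-0.72), the long arm (-0.79) and the other chromosomes (-0.03), and orange bars give the median of each block of up to 10 neighbouring genes, which lie between -0.91 and -0.46.

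Along the arm, blocks of 10 neighbouring detected genes were all lower at the median. From the end of the arm inwards, the block medians were -0.91 (ZMYND11 to GDI2), -0.85 (ANKRD16 to UPF2), -0.81 (DHTKD1 to DCLRE1C), -0.67 (RPP38 to COMMD3), -0.63 (SPAG6 to MASTL) and -0.46 (RAB18 to NRP1). The last 7 genes before the centromere, CUL2 to LINC00999, had a median of -0.54. The 2 blocks nearest the centromere were thus the least lowered, and their genes were also the dimmest, where detection on both arrays limits how low a member can stand. Median normalized log2 intensity was 8.37 in the first block, 6.52 in the block ending at NRP1 and 6.01 in the last, and the part of brightness in this was not tested. Neighbours were lower in long unbroken runs: 24 consecutive genes from NET1 to RPP38, and 22 from MINDY3 to MTPAP. The 6 genes above 0 stood apart from each other, at LINC00200, KLF6, FAM171A1, MAP3K8, NRP1 and LINC00999. With only 6 of the 67 genes above 0, long runs arise in any order of the genes. The runs are thus no result about position along the arm. Under median scaling KLF6 and MAP3K8 were below 0 as well, which made 63 of the 67 genes, and so was the median of the other chromosomes (-0.43).

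Values on either side of the centromere overlapped. On the short-arm side the nearest members were ZNF33A at -0.75, HSD17B7P2 at -0.36 and LINC00999 at 0.78. On the long-arm side ZNF33B stood at -1.35, BMS1 at -0.63 and RET at -0.80. ZNF33A and ZNF33B are near-identical zinc-finger genes on opposite sides of the centromere, and HSD17B7P2 is a pseudogene of HSD17B7, so the probes of these 3 may read a related transcript and their values are uncertain. Over 247 genes of the long arm the median was -0.79, with 92.7% lower. The short-arm median was 0.08 above that of the long arm and 0.69 below that of the other chromosomes (-0.03, 53.3% lower).

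**Figure D2:**
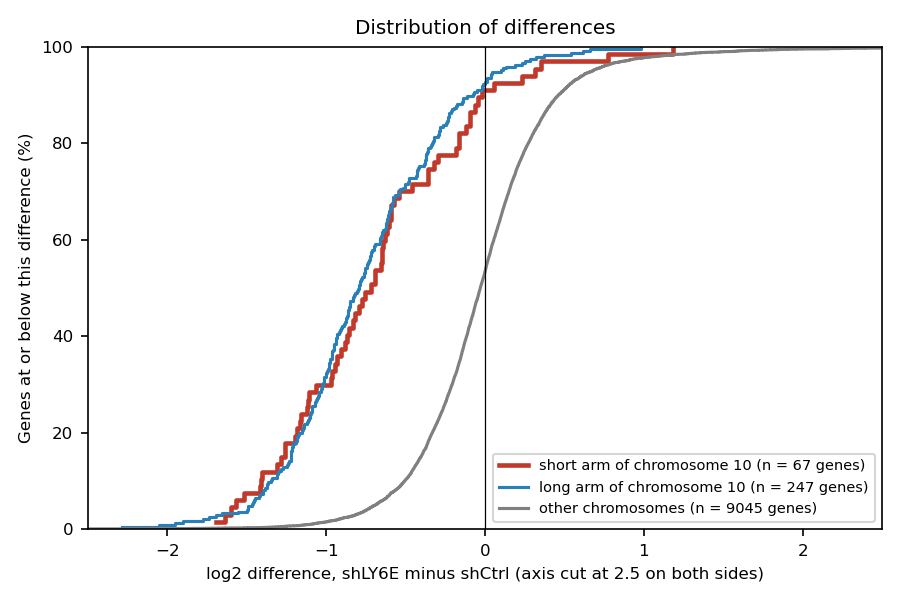
Cumulative share of genes (y axis, %) at or below each log2 difference (x axis, shLY6E minus shCtrl) for the 67 short-arm genes, 247 long-arm genes and 9045 genes of other chromosomes. The curves of the arms lie close together and cross 0 at 91.0% and 92.7%, against 53.3% for the other chromosomes.

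The lowest differences were those of ASB13, ARHGAP21, NET1 and ZNF438. ASB13, a substrate-binding subunit of an E3 ubiquitin ligase, had a deposited intensity of 111 in shLY6E and 242 in shCtrl, and its difference was -1.69. ARHGAP21, a GTPase-activating protein at the Golgi, had intensities of 134 and 345 in shLY6E and shCtrl and stood at -1.64. For NET1, a guanine nucleotide exchange factor for RHOA, the values were 217 in shLY6E and 716 in shCtrl, and the difference was -1.60, or 3.03-fold lower. In shLY6E the signal of ASB13 lay close to the lowest detected intensity there, 106, so its fold depends on the background estimate. Without background correction ASB13 stood at -0.77 and ZNF438 at -1.26, with an offset of 50 ASB13 stood at -1.13 and NET1 at -1.43, and under median scaling all 4 lay between -2.04 and -1.99, so their order is not settled. NET1 was read by 2 probes, and the less bright one stood at -0.98.

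ZNF438, a zinc-finger gene, had intensities of 246 in shLY6E and 838 in shCtrl, a difference of -1.57, and ZNF25, another, had 159 and 437, a difference of -1.52. Then followed MIR1915HG, a non-coding host gene of a microRNA, at -1.42, the actin-binding protein gene SVIL at -1.41, the DNA helicase gene FBH1 at -1.41, RSU1 at -1.31, RBM17 at -1.28, ZMYND11 at -1.26 and SKIDA1 at -1.26. By the brightest probe of each, all of these were at least 2.39-fold lower in shLY6E.

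Genes of RNA processing, decay and translation were lower without exception among those detected. By their brightest probes, all 8 of this group were lower by 1.5-fold or more, with a median of -0.95. Over the whole arm 67.2% of members were, and over all genes 9.67%. The counts of every role below are to be read beside these shares. Roles also differ in brightness, and the part of brightness in their differences was not tested. RBM17, a splicing factor that acts at the 3′ splice site, had intensities of 213 in shLY6E and 584 in shCtrl. UPF2, which bridges UPF1 and UPF3 in nonsense-mediated mRNA decay, had 411 in shLY6E and 1230 in shCtrl, and its 3 detected probes stood at -1.18, -1.11 and -1.02. CDC123, an assembly factor for the translation initiation factor eIF2, had 574 in shLY6E and 1688 in shCtrl, a difference of -1.11. CELF2, a splicing regulator abundant in blood cells, stood at -0.97 and -0.92 on the probes detected on both arrays. Its remaining probe read 113 in shLY6E and 126 in shCtrl, and missed the detection limit in shCtrl. GTPBP4, a GTPase of 60S ribosome assembly, had 717 in shLY6E and 1892 in shCtrl (-0.94), and LARP4B, which binds mRNA and promotes its translation, had 812 and 2066 (-0.87). SEPHS1, a homologue of selenophosphate synthetase, stood at -0.80 on its brighter probe and at -0.43, within 1.5-fold, on its dimmer one. RPP38, a subunit of RNase P, stood at -0.59, just past 1.5-fold. It was dim, with 114 in shLY6E and 168 in shCtrl, and stood at -0.23 without background correction. As a group these genes were bright: their median normalized log2 intensity was 9.15.

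By their brightest probes, the 6 detected mitochondrial genes were all lower by 1.5-fold or more too, where 67.2% of members and 9.67% of all genes were. Their median was -1.01. DHTKD1, a 2-oxoadipate dehydrogenase of lysine breakdown, had intensities of 116 in shLY6E and 217 in shCtrl (-1.20). MSRB2, a mitochondrial methionine sulfoxide reductase, had 521 in shLY6E and 1572 in shCtrl (-1.17), and MTPAP, the mitochondrial poly(A) polymerase, had 184 and 448 (-1.16). PDSS1, a subunit of the enzyme that makes the coenzyme Q side chain, stood at -0.86 and -0.57 on its 2 probes. PITRM1, a protease that clears targeting peptides, stood at -0.82, and the inner-membrane protease gene YME1L1 at -0.62.

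Chromatin and transcription genes were less uniform. Of 8 detected, 5 were lower by 1.5-fold or more (62.5%, near the 67.2% of all members) and 7 were below 0, with a median of -0.76. ZMYND11, a reader of methylated histone H3.3, had 330 in shLY6E and 1001 in shCtrl, a difference of -1.26. SFMBT2, a Polycomb-group protein gene, stood at -0.78 and WAC, an adaptor for histone H2B ubiquitination, at -0.57 and -0.59 on its 2 probes. ZNF248 stood at -0.29, close to the detection limit. KLF6, a zinc-finger factor induced in activated macrophages, was the 1 member of this group above 0, at 0.24, with 378 in shLY6E and 478 in shCtrl. After quantile normalization its log2 value was 8.56 in shLY6E, against 8.32 in shCtrl. Under median scaling its difference turned to -0.24. The other 5 members above 0 are all among the 23 dimmest of the arm, and KLF6 is not.

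**Figure D3:**
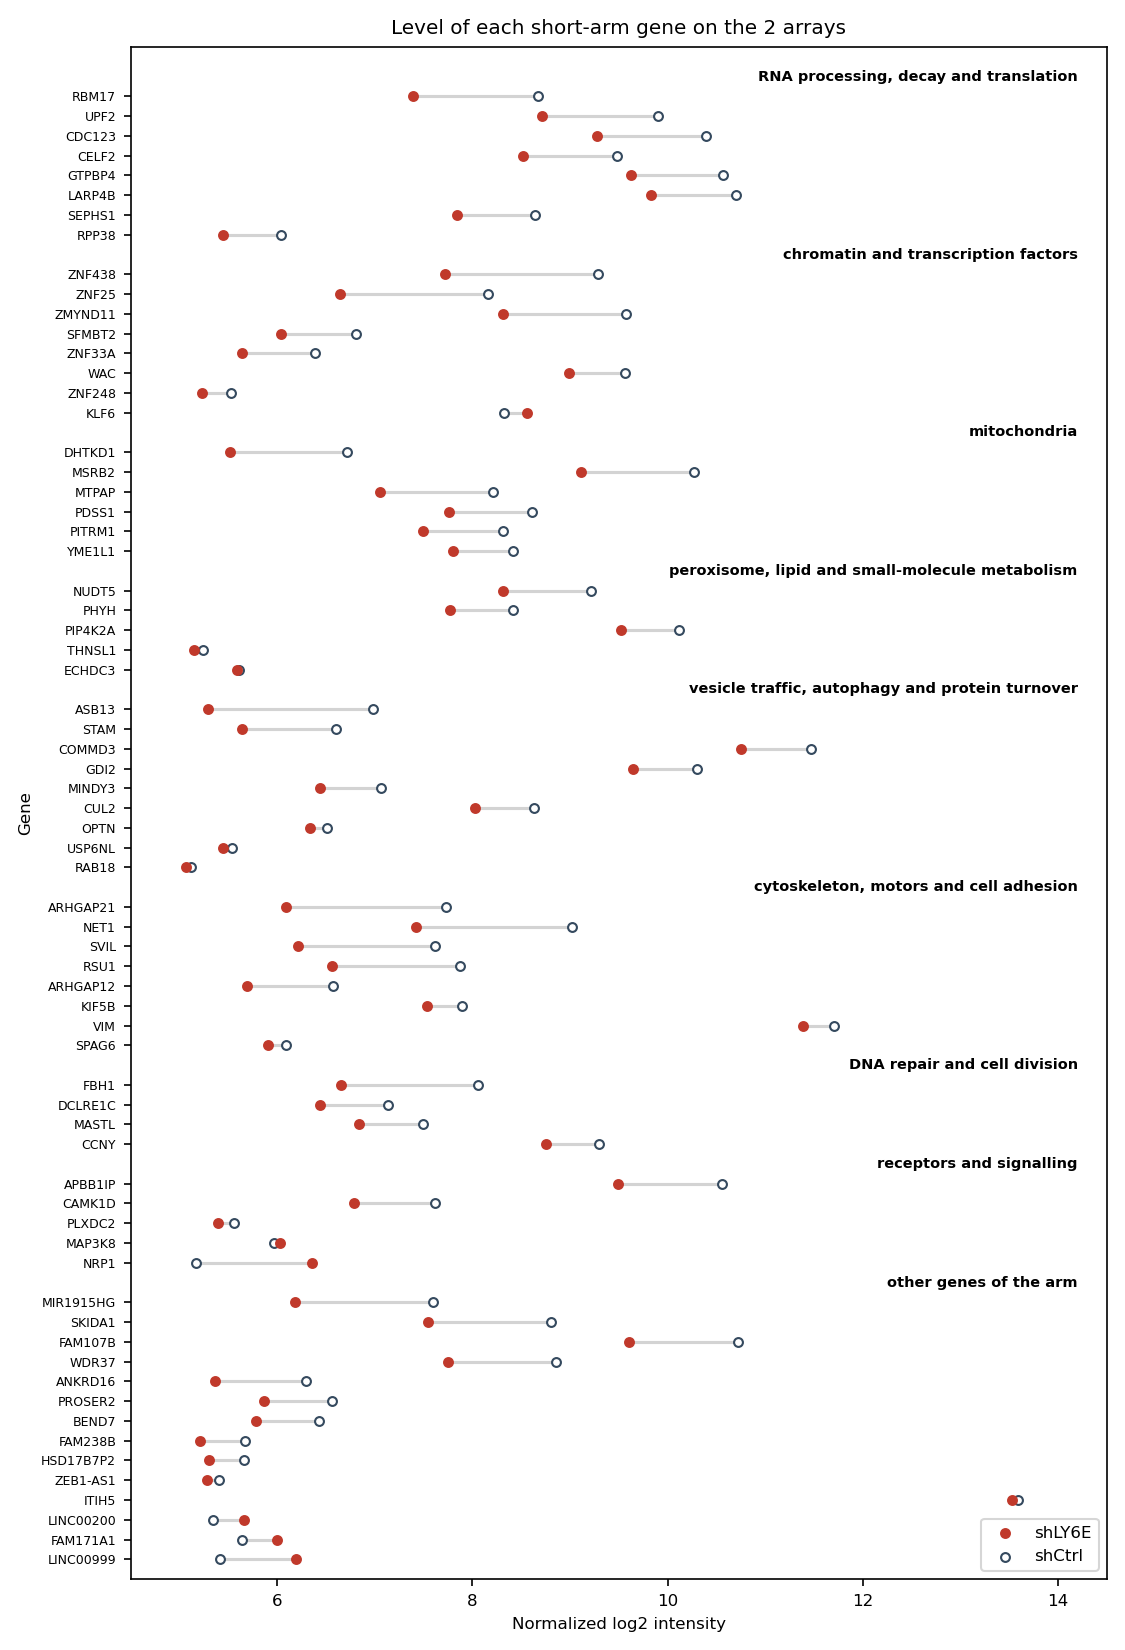
Normalized log2 intensity (x axis) of every member (rows, grouped by role) in shLY6E (filled) and shCtrl (open), 1 array each. In 61 of 67 rows the shLY6E point lies to the left, and the longest gap the other way is that of NRP1 (6.36 in shLY6E, 5.17 in shCtrl).

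Of 9 detected genes of vesicle traffic and protein turnover, all 9 were below 0 and 6 lower by 1.5-fold or more, with a median of -0.63. STAM, an ESCRT-0 subunit that sorts ubiquitinated receptors, stood at -0.97. COMMD3, which acts in endosomal recycling, was the brightest of them, with 1480 in shLY6E and 3380 in shCtrl (-0.72). GDI2, which extracts RAB GTPases from membranes, had 725 and 1595 in the same order (-0.65), MINDY3, a deubiquitinase, stood at -0.63 and CUL2, a cullin scaffold, at -0.60. OPTN, an autophagy receptor, stood at -0.16, USP6NL, a GTPase-activating protein for RAB5, at -0.09 and RAB18, a lipid-droplet GTPase, at -0.05. OPTN, USP6NL and RAB18 had intensities of 144, 114 and 107 in shLY6E and 199, 145 and 130 in shCtrl, and RAB18 was the dimmest member of all.

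All 8 detected genes of the cytoskeleton and cell adhesion were below 0 and 5 were lower by 1.5-fold or more, with a median of -1.10. SVIL had 138 in shLY6E and 326 in shCtrl. RSU1, a component of the ILK, PINCH and parvin adhesion complex, had 155 in shLY6E and 373 in shCtrl (-1.31), but its dimmer probe, at 108 and 133, gave -0.05. ARHGAP12, a GTPase-activating protein, stood at -0.88. VIM was much less lowered, with 2321 in shLY6E and 3929 in shCtrl, a difference of -0.32, and -0.12 on its other probe. KIF5B, the heavy chain of the motor kinesin-1, stood at -0.36 with 227 in shLY6E and 376 in shCtrl.

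In metabolism 5 genes were detected, all 5 below 0 and 3 lower by 1.5-fold or more, with a median of -0.59. NUDT5, which hydrolyses ADP-ribose, had 330 in shLY6E and 805 in shCtrl (-0.90). PHYH, which starts the alpha-oxidation of branched fatty acids in peroxisomes, stood at -0.64, -1.36 and -0.86 on 3 probes. PIP4K2A, a lipid kinase, had 672 in shLY6E and 1403 in shCtrl (-0.59). ECHDC3 and THNSL1 differed by -0.02 and -0.10 and were near the detection limit. Of 4 genes of DNA repair and cell division, 3 were lower by 1.5-fold or more, with a median of -0.67. After FBH1 came DCLRE1C, which encodes the end-joining nuclease Artemis, at -0.70 and MASTL, the Greatwall kinase that sustains mitosis, at -0.65. CCNY, a membrane-bound cyclin, stood at -0.54. The dimmer detected probes of DCLRE1C and CCNY stood lower, at -1.15 and -0.87.

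Of 5 detected receptor and signalling genes, 2 were lower by 1.5-fold or more, 1 was higher by 1.5-fold or more, and the median was -0.17. The direction of the 2 members above 0, NRP1 and MAP3K8, is uncertain. APBB1IP had 660 in shLY6E and 1879 in shCtrl (-1.07), and CAMK1D, a calcium and calmodulin-dependent kinase gene, stood at -0.83, -0.32 and -0.87 on 3 probes. PLXDC2, a transmembrane protein gene, stood at -0.17. MAP3K8 had 131 in shLY6E and 165 in shCtrl, and stood at 0.06 after quantile normalization and at -0.27 under median scaling.

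NRP1, a neuropilin that binds semaphorins and VEGF, was the highest of the arm, 2.27-fold higher in shLY6E. It had a deposited intensity of 144 in shLY6E and 132 in shCtrl, where its detection p-value was 0.00519. Its other probe read 105 in shLY6E, where its detection p-value was 0.0182 and missed the limit, and 139 in shCtrl, where the detection p-value was 0.0026. The probes of NRP1 thus disagreed in direction, and the gene's difference is uncertain. LINC00999, a non-coding RNA, was 1.71-fold higher with 137 in shLY6E and 140 in shCtrl.

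In the remaining group of 14 genes, 7 were lower by 1.5-fold or more and 11 were below 0, with a median of -0.55. FAM107B had 705 in shLY6E and 2102 in shCtrl (-1.12), and WDR37 stood at -1.11 and -0.84 on its 2 probes. By their brighter detected probes ANKRD16, PROSER2 and BEND7 stood at -0.93, -0.70 and -0.65. Their dimmer detected probes stood at -0.12, -0.60 and -0.02, so the size of the difference of ANKRD16 and BEND7 is uncertain. The group holds the dim non-coding genes FAM238B (-0.46), ZEB1-AS1 (-0.12) and LINC00200 (0.31), and FAM171A1 at 0.36. ITIH5, a gene of the inter-alpha-trypsin inhibitor heavy chain family, was the brightest member, with 10539 in shLY6E and 13800 in shCtrl (-0.06). Only 1 of its 5 probes was detected, and the other 4 lay between 86.3 and 101 in shLY6E and between 103 and 109 in shCtrl. What the bright probe of ITIH5 reads is uncertain. The 61 protein-coding members had a median of -0.78 and the 6 others -0.24.

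Differences are given next by brightness, with a limit set by the choice of members. Since a member had to be detected on both arrays, a dim gene had less room to be lower in shLY6E than a bright one: detected probes started at a normalized log2 value of 5.05 (shLY6E) and 5.06 (shCtrl), and 14 short-arm genes detected in shCtrl only are not among the members. The 23 dimmest members, at a mean normalized log2 intensity of 6.14 or less, had a median of -0.18, with 18 below 0 and 8 lower by 1.5-fold or more. The 22 in the middle had a median of -0.84, with 22 below 0 and 20 lower by 1.5-fold or more. The 22 brightest, above 8.23, had a median of -0.89, with 21 below 0 and 17 lower by 1.5-fold or more. Long-arm genes in the same ranges had medians of -0.31, -0.93 and -0.80. Of them 76.1%, 96.5% and 96.5% were below 0, and 39.1%, 74.8% and 70.9% lower by 1.5-fold or more. Genes of other chromosomes had medians of -0.03, -0.04 and -0.03, with 53.1%, 53.6% and 53.2% below 0. Lower by 1.5-fold or more were 8.54%, 9.85% and 4.87% of them. In shLY6E 26 of the 67 members lay under 1.5 times the estimated background (91.8), and in shCtrl 13 did (background 108). The offset added after background correction shrinks differences of dim genes.

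**Figure D4:**
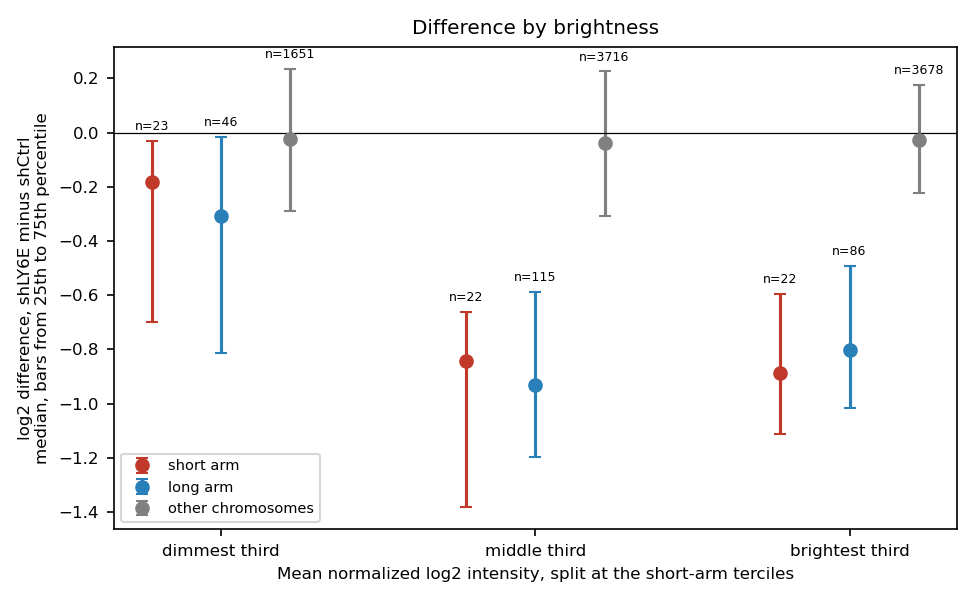
Median log2 difference (points) with bars from the 25th to the 75th percentile for short-arm, long-arm and other genes, in 3 ranges of mean normalized log2 intensity cut at the short-arm terciles (6.14 and 8.23). Short-arm medians are -0.18, -0.84 and -0.89 from dim to bright, while other chromosomes stay at -0.04 to -0.03.

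Probes of 1 gene gave the spread available within these arrays. Of the members, 18 had at least 2 detected probes (39 probes), and in all 18 every such probe was lower in shLY6E. By the brightest probe, 54.7% of all genes were lower, and the share with every probe lower was not counted over all genes. The arm was picked after genes of chromosome 10 had been seen to be lower, so this count is no test. The pooled SD of the difference within a gene was 0.35, against 0.28 over 2254 genes of all chromosomes with at least 2 detected probes. The probes of WAC, CELF2 and PIP4K2A differed by 0.02, 0.05 and 0.07, and those of RSU1, ANKRD16 and SPAG6 by 1.26, 0.81 and 0.79. These probes share both RNA samples and so say nothing of the spread between cultures.

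Genes of the arm that missed the detection limit on 1 array did so mostly in shLY6E. Of 160 short-arm genes with a named probe, 14 (8.75%) were detected in shCtrl only and 2 (1.25%) in shLY6E only, while 77 were detected on neither array. On the long arm 8.03% of 585 genes were detected in shCtrl only and 1.88% in shLY6E only, close to the short-arm shares. On other chromosomes 2.91% of 19264 genes were detected in shCtrl only and 2.84% in shLY6E only. AKR1C2, an aldo-keto reductase gene, read 105 in shLY6E and 172 in shCtrl and was at least 2.08-fold lower. PRKCQ, the protein kinase C of T-cell receptor signalling, read 104 in shLY6E and 169 in shCtrl and was at least 2.0-fold lower, AKR1C4 at least 1.87-fold, SEC61A2 at least 1.78-fold and EPC1, a subunit of the NuA4 acetyltransferase, at least 1.76-fold. The AKR1C genes are near-identical copies, so their values are uncertain. Such a fold sets the brighter array against the higher of the gene's own signal and the lowest normalized signal of a detected probe on the other. Just inside the limit stood RAB18, THNSL1 and NRP1, with differences of -0.05, -0.10 and 1.18. Just outside it stood PRKCQ-AS1 and AKR1C2, which missed it in shLY6E, and TAF3, which missed it in shCtrl, with measured differences of -0.76, -1.12 and 0.27.

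Paralogs and partners encoded on other chromosomes were mostly near 0. A list of such relatives drawn up from textbook knowledge gave 52 detected genes for 30 members. The 30 members had a median of -0.67, with 27 below 0 and 20 lower by 1.5-fold or more. Their 52 relatives had a median of 0.02, with 24 below 0, 4 lower by 1.5-fold or more and 5 higher by 1.5-fold or more. Of all genes, 54.7% were below 0, 9.67% lower by 1.5-fold or more and 6.41% higher by 1.5-fold or more. In 50 of 52 pairs the short-arm gene had the lower difference. The arm was picked after genes of chromosome 10 had been seen to be lower, so this count is no test. Members with several relatives also enter more than 1 pair.

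Gaps between members and their partners ran from wide to slight. UPF2 stood at -1.18, its partner UPF1 at -0.34 and the decay kinase SMG1 at 0.21. CDC123 stood at -1.11, while the eIF2 subunit genes EIF2S3 and EIF2S1 stood at 0.08 and 0.08. RSU1 stood at -1.31 on its brighter probe, with its adhesion partners ILK, LIMS1 and PARVB at -0.17, 0.0038 and 0.21. On its dimmer probe RSU1 stood at -0.05, above ILK, so the width of this gap is uncertain. RBM17 stood at -1.28, and the splicing factors it works with, U2SURP and CHERP, at -0.18 and -0.15. MASTL stood at -0.65, with its substrates ENSA and ARPP19 at 0.53 and 0.10. The gap was slight for YME1L1 (-0.62) with OMA1 (-0.55), OPTN (-0.16) with TBK1 (-0.14), RAB18 (-0.05) with RAB3GAP1 (0.04) and DCLRE1C (-0.70) with PRKDC (-0.52). On its dimmer probe, however, DCLRE1C stood at -1.15. LIG4, the ligase that acts after DCLRE1C, stood at 0.07. With 109 in shLY6E and 130 in shCtrl, LIG4 was near the lowest detected intensities, so its difference is uncertain.

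The cullin and sorting complexes gave the same order. CUL2 stood at -0.60, with the elongins ELOB and ELOC at -0.0014 and -0.31, RBX1 at 0.04 and VHL at 0.56. STAM stood at -0.97, with its partner HGS at 0.02 and its paralog STAM2 at 0.49. APBB1IP stood at -1.07, with TLN1, the talin gene, at -0.18 and RAP1A at 0.70. PIP4K2A stood at -0.59, with PIP4K2B and PIP4K2C at 0.21 and 0.06.

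Some relatives were lower as well. LARP4, paralog of LARP4B (-0.87), stood at -0.69, PDSS2, partner of PDSS1 (-0.86), at -0.63, COMMD4 at -0.61 and ZMYND8 at -0.60, beside OMA1 and PRKDC above. LARP4 read 107 in shLY6E, close to the lowest detected intensity there, 106, so its difference is uncertain. The pairs in which the short-arm gene was the higher were NRP1 with PLXNA1 (1.18 and -0.03) and KLF6 with KLF4 (0.24 and -0.11, quantile-normalized). MAP3K8, at 0.06, stood below its binding partners NFKB1 and TNIP2, at 1.29 and 0.67. NFKB1 had a deposited intensity of 2317 in shLY6E and 1382 in shCtrl.

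**Figure D5:**
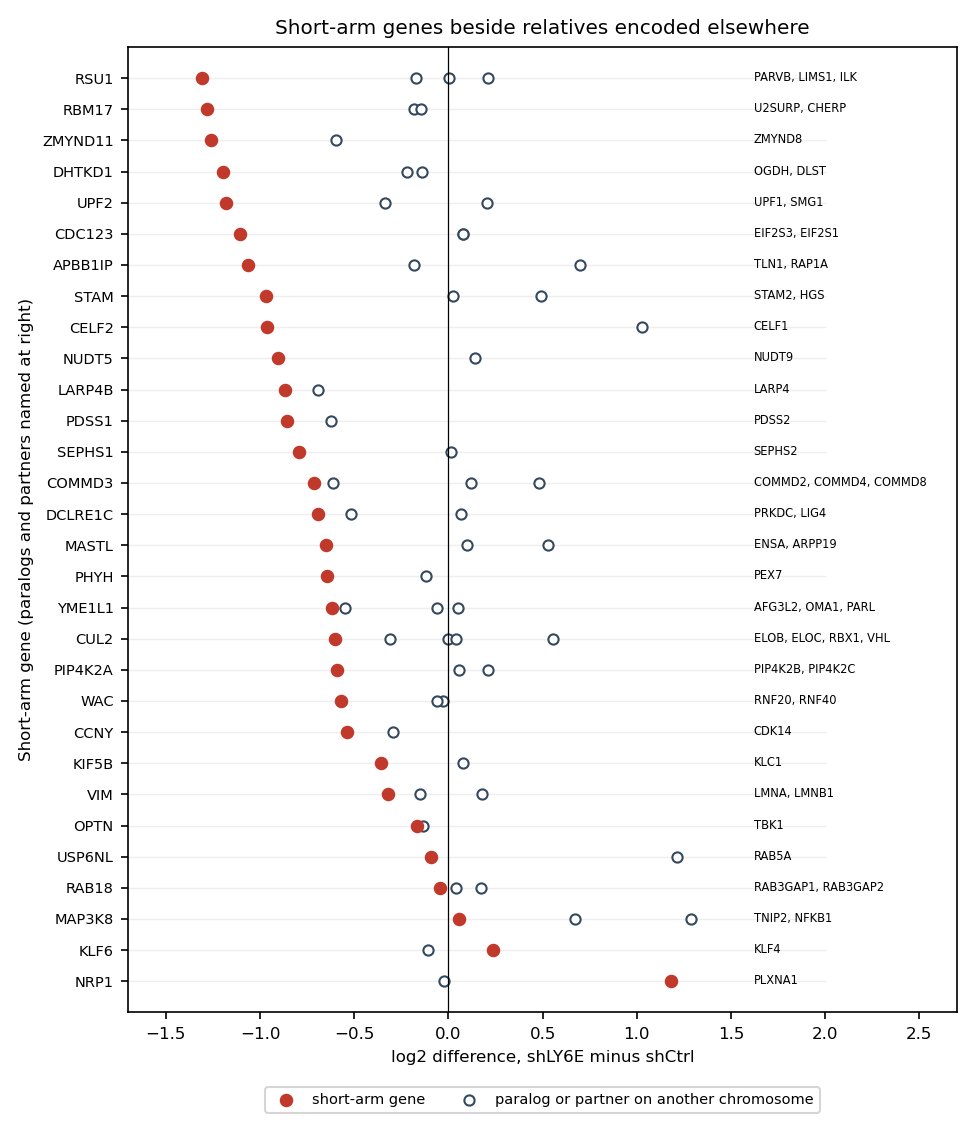
Log2 difference (x axis, shLY6E minus shCtrl, 1 array each) of 30 short-arm genes (filled) beside their paralogs and partners on other chromosomes (open, named at right). In 50 of 52 pairs the filled point lies to the left, and the exceptions are NRP1 with PLXNA1 and KLF6 with KLF4.

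Promoter sequences are shown for the lowest and the highest protein-coding members to set side by side what genes near either end of the range carry upstream. RefSeq sequences (GRCh38.p14, 250 bases before to 50 after the annotated start) were matched for 63 of the 67 members, and not for NRP1, YME1L1, HSD17B7P2 and LINC00999. Capitals mark GC boxes (GGGCGG) and CCAAT boxes (CCAAT) on either strand. ASB13, ARHGAP21 and NET1 are the lowest 3 after quantile normalization, and FAM171A1 and KLF6 the highest protein-coding genes after NRP1. These ranks change with the processing: ASB13 stood at -0.77 without background correction, and under median scaling FAM171A1 stood at 0.04 and KLF6 at -0.24.
ASB13 (chr10:5666546-5666845, minus strand): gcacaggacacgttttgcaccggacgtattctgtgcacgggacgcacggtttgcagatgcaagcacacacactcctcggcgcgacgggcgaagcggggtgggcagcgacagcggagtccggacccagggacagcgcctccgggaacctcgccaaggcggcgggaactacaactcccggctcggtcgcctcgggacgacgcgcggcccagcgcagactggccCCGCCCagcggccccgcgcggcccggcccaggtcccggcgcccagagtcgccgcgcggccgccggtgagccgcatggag
ARHGAP21 (chr10:24723172-24723471, minus strand): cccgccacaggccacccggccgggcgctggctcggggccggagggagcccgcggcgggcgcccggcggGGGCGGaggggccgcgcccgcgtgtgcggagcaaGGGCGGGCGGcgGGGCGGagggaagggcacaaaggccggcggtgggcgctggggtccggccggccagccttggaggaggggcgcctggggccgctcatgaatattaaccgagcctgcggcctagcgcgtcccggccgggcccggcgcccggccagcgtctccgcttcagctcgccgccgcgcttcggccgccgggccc
NET1 (chr10:5446301-5446600, plus strand): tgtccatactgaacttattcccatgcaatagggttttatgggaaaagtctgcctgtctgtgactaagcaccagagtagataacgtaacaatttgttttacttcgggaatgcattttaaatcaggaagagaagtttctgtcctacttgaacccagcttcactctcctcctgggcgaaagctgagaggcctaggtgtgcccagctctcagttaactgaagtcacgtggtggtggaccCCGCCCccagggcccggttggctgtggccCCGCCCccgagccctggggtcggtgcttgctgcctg
FAM171A1 (chr10:15371240-15371539, minus strand): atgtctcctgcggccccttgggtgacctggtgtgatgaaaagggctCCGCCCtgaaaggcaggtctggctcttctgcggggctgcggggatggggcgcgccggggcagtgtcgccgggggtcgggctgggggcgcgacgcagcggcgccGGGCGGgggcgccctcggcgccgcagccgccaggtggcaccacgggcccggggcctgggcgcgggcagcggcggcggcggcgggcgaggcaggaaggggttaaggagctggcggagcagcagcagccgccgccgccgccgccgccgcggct
KLF6 (chr10:3785160-3785459, minus strand): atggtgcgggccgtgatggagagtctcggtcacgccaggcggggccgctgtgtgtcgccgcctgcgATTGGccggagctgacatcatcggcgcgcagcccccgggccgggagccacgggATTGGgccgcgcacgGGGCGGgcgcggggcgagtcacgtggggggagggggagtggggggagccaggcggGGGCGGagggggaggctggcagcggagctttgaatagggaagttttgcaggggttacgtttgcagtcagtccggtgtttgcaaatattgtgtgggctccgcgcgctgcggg

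The letters marked in the printed promoters are given as counts. ARHGAP21 held 4 GC boxes, NET1, FAM171A1 and KLF6 held 2 each and ASB13 held 1. KLF6 held 2 CCAAT boxes and the others 0. CG dinucleotides numbered 44 in ASB13, 47 in ARHGAP21, 9 in NET1, 41 in FAM171A1 and 33 in KLF6. Over the 63 members the median was 27, as it was over 7699 genes detected on both arrays, against 14 over all 27305 promoters of the table.

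Other motifs were searched on both strands in the same windows. A GC box stood in 68.3% of members, 70.4% of detected genes and 44.6% of all promoters, and a CCAAT box in 38.1%, 37.6% and 35.7%. The ETS core CGGAAG stood in 20.6% of members, 35.3% of detected genes and 19.9% of all promoters. The cAMP response element TGACGTCA was found in SPAG6, MASTL and ZNF438 (4.76% of members, 3.43% of detected genes, 1.98% of all), at differences of -0.18, -0.65 and -1.57. TATAAA was found in DCLRE1C (1.59% of members, 5.40% of detected genes). A match is a description of letters, and no binding was measured here.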

How the data were processed

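Total RNA of 2 THP-1 lines was read on 1 Illumina array each, and samples were grouped by their titles. The deposited unnormalized table holds a linear intensity and a detection p-value per probe and array, per the file headers. The p-values the authors deposited move in steps of 1 in 770. A second deposited table holds the authors' processed intensities, with a median of 6.14 in both columns and 25.5% of values below 0. From the values it is background-subtracted and on a common distribution. Scanner software, the authors' methods and the genome build of the probes are not stated in the labels or headers, so gene order came from RefSeq and no gene coordinates are printed outside the promoters.

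Intensities were corrected with normexp through the detection p-values (offset 16), quantile-normalized and log2-transformed with limma 3.58.1 in R 4.3.3. Later steps used Python 3.11.15, numpy 2.4.6, pandas 2.3.3 and matplotlib 3.10.9. The platform annotation gave 30113 probes with 1 symbol, 8 with several and 17200 with none; 30074 matched RefSeq by Entrez ID. The brightest probe detected on both arrays stood for a gene. Steps were tested on simulated arrays, where recovery of known 2-fold changes was required only for probes with a log2 intensity over 8. Many members are dimmer than that, and for such probes recovery was not required. Members, roles, relatives and thresholds (1.5-fold, 2-fold) were chosen with earlier results of these data known. Genes named were the lowest, highest and brightest, those at the arm's ends and detection limit, those with several probes, leading members of each role, and members with relatives. Motifs and promoters were chosen after the data were seen. The 8 alternatives were no background correction, offset 50, median scaling, 3 other detection rules, the mean over probes and the processed intensities (values below 0 set to 0, 16 added before log2).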

Additional observations from a re-analysis of the deposited data

Results flagged for a closer look

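Outside the 67 genes, 2 genes of the arm gave a signal in shLY6E where shCtrl had none above its detection limit. ACBD5, a peroxisomal membrane protein gene, had a deposited intensity of 111 in shLY6E and 125 in shCtrl, where the detection p-value was 0.0195. TAF3, a subunit of the transcription factor TFIID, had 110 in shLY6E and 126 in shCtrl, where p was 0.0169. Both lay near the lowest detected intensities, 106 in shLY6E and 129 in shCtrl. Normalized, they were at least 1.17-fold and at least 1.12-fold higher in shLY6E.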

How the results depend on the processing

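No paired analysis was possible because there was only 1 array in either group. The short-arm median was -0.72 and lay between -0.82 and -0.48 under 7 alternatives. With median scaling it was -1.11, but that scaling also put the median of the other chromosomes at -0.43, and relative to them the arm stood at -0.67, close to the -0.69 of quantile normalization. Without background correction 8 genes were lower by 2-fold or more, 28 by 1.5-fold or more, and 0 were higher by 1.5-fold, where 0.662%, 3.84% and 3.04% of all genes were. Median scaling gave 45 lower by 2-fold or more and 1 higher by 1.5-fold or more, where 9.07% and 2.21% of all genes were. The count higher by 1.5-fold was 1 with offset 50 (4.35% of all genes) and 0 with a detection p-value of 0 on both arrays (5.81%). No background correction and offset 50 shrink differences by construction. They also keep the order of probes on each array, so under quantile normalization they could not change a sign. The 3 other detection rules reuse the same normalized values. Every detected probe of the 18 members with several was lower, so the mean over probes could not change a sign either. The processed intensities are on a common distribution too, so their signs are not independent of these. Median scaling moved the median of the other chromosomes by -0.40, downwards, so members already lower could hardly turn. Signs kept under the alternatives are thus no check of direction. No member at least 1.5-fold apart changed sign under any of the 8 alternatives that gave it a value (0 genes), and 2 members nearer 0 did under median scaling, KLF6 (-0.24) and MAP3K8 (-0.27). Detection on at least 1 array, with bounds for genes seen on 1, gave a median of -0.70 over 83 genes, and the authors' processed intensities -0.73. Signal over background limits the dim genes: the median member lay at 1.73 times the background in shLY6E, against 3.44 times in shCtrl. Over all detected probes of each array the median lay at 2.18 times in shLY6E and 2.52 times in shCtrl. The wider gap of the members is thus not that of the arrays.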
